A study of Mus musculus with 11 samples.

Results

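The 6 genes En1, En2, Pax2, Gbx2, Wnt1 and Lmx1b of the midbrain-hindbrain boundary were examined in mouse epiblast stem cells (EpiSCs) for chromatin precipitation (ChIP-seq) peaks of 5 transcription factors (TFs), which were ZIC2, OTX2, SOX2, POU5F1 and POU3F1. Every peak with its midpoint in the body of one of the 6 genes or within 50 kb on either side was taken, with the gene models placed on mm9. This gave 414 peaks out of 1004445 in 10 lists, 209 in EpiSC culture and 205 in activin-free culture. The rule takes peaks by position and uses no measured value.

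The cells were EpiSCs of strain 129/Sv, a cell type derived from the epiblast of the postimplantation embryo and grown without feeders in medium that held activin at 20 ng/ml together with Fgf2 at 10 ng/ml. The activin-free cultures had been without activin for 18 hr when they were harvested. In both cultures the TF was made from a transiently transfected plasmid, carried a tag that the co-expressed BirA ligase biotinylates, and was recovered with its DNA on streptavidin beads. Each TF and culture had 1 library, and the input control had no peak list here, so no difference between the cultures has a replicate check and no p-value is given. The added TF comes on top of the cell's own protein, and all cells came from 1 EpiSC line. Read depth is unknown. In all 10 lists, a peak with a score of 3100 lay over the gene of the TF that the label names, with 100% of its coding bases covered. No boundary gene was itself transfected.

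The midbrain-hindbrain boundary, or isthmus, is an organizing centre of the neural tube from which secreted signals pattern the midbrain and the cerebellum. Its position is set where the anterior domain of Otx2 meets the posterior domain of Gbx2, and Pax2, Lmx1b, Wnt1, En1 and En2 are known for building and maintaining it together with Fgf8. Wnt1 is the secreted ligand of the group, Gbx2, En1 and En2 encode homeodomain TFs, Pax2 a paired-box TF and Lmx1b a LIM-homeodomain TF. EpiSCs represent a stage before the neural tube has formed. POU5F1 is known as a core TF of pluripotent cells, SOX2 of pluripotent and neural cells, and ZIC2, OTX2 and POU3F1 of the epiblast and the anterior neural plate.

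The sequences below, from mm9 on the plus strand, are the middle of the site with most TFs around each gene in EpiSC culture, or, where several sites had as many, of the one with the highest summed score. At Pax2 10 sites and at Lmx1b 6 sites had 2 TFs, and the site shown was chosen in this way. They are shown because the gene-by-gene results return to these sites. A site is a run of peaks of different TFs in which neighbours share at least 1 bp. Capitals mark matches on either strand to the letters CAGCAGG (searched for ZIC2), GGATTA or GGTAAT (OTX2), ACAAAG or ACAATG (SOX2), and ATGCAAAT or ATGCATAT (POU5F1 and POU3F1). None of these words contains another. The En2 window was ended at an exon of Cnpy1, which leaves 167 bases. The others have 200.
Gbx2, chr1:91839058-91839257, between genes: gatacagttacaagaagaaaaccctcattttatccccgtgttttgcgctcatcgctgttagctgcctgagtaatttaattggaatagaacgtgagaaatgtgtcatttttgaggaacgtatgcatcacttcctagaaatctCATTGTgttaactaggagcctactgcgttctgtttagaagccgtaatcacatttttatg
En2, chr5:28536904-28537070, inside Cnpy1: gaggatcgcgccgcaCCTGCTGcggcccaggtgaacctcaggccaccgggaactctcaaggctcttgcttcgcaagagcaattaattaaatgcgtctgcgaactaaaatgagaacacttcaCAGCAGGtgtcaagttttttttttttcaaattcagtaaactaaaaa
Lmx1b, chr2:33436223-33436422, intron of Lmx1b: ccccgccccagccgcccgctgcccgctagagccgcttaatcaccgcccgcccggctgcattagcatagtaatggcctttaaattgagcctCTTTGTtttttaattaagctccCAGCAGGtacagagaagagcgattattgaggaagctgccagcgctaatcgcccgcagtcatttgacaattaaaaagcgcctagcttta
Pax2, chr19:44920888-44921087, downstream of Pax2: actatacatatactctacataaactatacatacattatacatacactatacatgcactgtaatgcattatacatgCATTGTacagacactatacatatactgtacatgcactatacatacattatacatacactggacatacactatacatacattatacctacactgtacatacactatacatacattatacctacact
En1, chr1:122470660-122470859, upstream of En1: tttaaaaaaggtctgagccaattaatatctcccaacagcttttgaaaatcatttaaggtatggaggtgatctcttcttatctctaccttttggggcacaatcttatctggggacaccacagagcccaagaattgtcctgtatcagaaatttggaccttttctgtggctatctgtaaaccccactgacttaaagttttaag
Wnt1, chr15:98593892-98594091, upstream of Wnt1: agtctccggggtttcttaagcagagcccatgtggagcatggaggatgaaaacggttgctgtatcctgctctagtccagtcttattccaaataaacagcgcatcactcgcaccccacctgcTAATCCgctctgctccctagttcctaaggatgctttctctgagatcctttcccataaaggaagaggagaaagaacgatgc

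The En2 stretch holds CAGCAGG once on each strand, and the Lmx1b stretch holds it once, beside ACAAAG. The Wnt1 stretch holds GGATTA. The Gbx2 and Pax2 stretches each hold ACAATG, although no SOX2 peak lay at either site, and the En1 stretch holds none of the words. These stretches are the middle of the sites and not of each peak. The middle 200 bases of the EpiSC POU5F1 peak at the Pax2 site did hold a POU word. Those of the EpiSC SOX2 peak at the En1 site held a SOX2 word. For comparison, CAGCAGG was found in 19% of the middle 200 bases of all ZIC2 peaks in EpiSC culture and in 6.32% of windows of the same length centred 1000 bp away. GGATTA was found in 23.5% of OTX2 peaks and 8.97% of their neighbouring windows. ACAAAG was in 38% of SOX2 peaks and 18.1% of neighbouring windows, and ACAATG in 29.7% and 14.1%. At the boundary genes, 27 of 137 ZIC2 peaks (19.7%) held CAGCAGG, 12 of 50 OTX2 peaks (24%) held GGATTA, and 4 of 6 SOX2 peaks held ACAAAG, in EpiSC culture. In activin-free culture the counts were 28 of 128 (21.9%), 6 of 38 (15.8%) and 5 of 11, beside 20.9%, 21.7% and 36.8% of the whole lists. ACAATG was in 0 of 6 and 0 of 11 SOX2 peaks, beside 29.7% and 27.9% of the lists. GGTAAT was in 3 of 50 and 0 of 38 OTX2 peaks, beside 7.19% and 7.44%. With either SOX2 word counted, the shares were 66.7% and 45.5%, beside 57.2% and 55.3%. For either OTX2 word they were 30% and 15.8%, beside 28.4% and 27.2%.

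Peaks of ZIC2 made up most of the peaks around the boundary genes. In EpiSC culture 137 of the 209 peaks were of ZIC2, 50 of OTX2, 12 of POU5F1, 6 of SOX2 and 4 of POU3F1. In activin-free culture 128 of the 205 were of ZIC2, 38 of OTX2, 24 of POU5F1, 11 of SOX2 and 4 of POU3F1. ZIC2 peaks covered 25.6% of the bases of the 6 windows in EpiSC culture and 22.4% in activin-free culture, whereas over the windows of all 22367 protein-coding genes they covered 7.15% and 5.87%. OTX2 peaks covered 5.89% and 5.62% of the 6 windows, and 4.9% and 6.43% of the windows of all protein-coding genes.

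**Figure D1:**
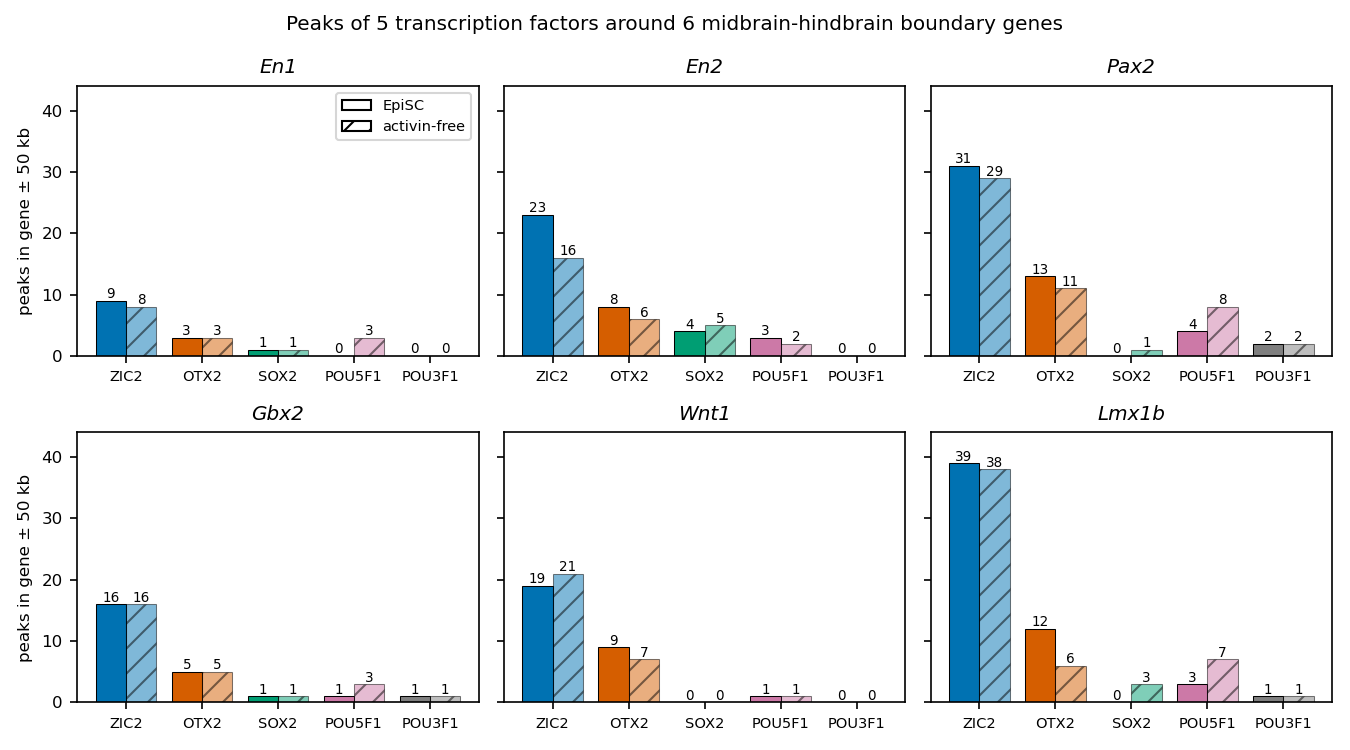
Number of peaks (vertical axis) of each TF (horizontal axis) in the window of each gene, for EpiSC (plain bars) and activin-free culture (hatched bars), with 1 library per bar and the count printed above it. ZIC2 is highest at every gene, from 8 or 9 peaks at En1 to 38 or 39 at Lmx1b.

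Counted per length, ZIC2 peaks were 1.97 times as dense around the 6 genes as around all protein-coding genes in EpiSC culture (95% Poisson interval 1.65 to 2.33, which covers counting error only). In activin-free culture the ratio was 2.03 (1.69 to 2.41). OTX2 peaks were as dense as around all genes within that error, at 0.988 (0.733 to 1.3) and 0.806 (0.57 to 1.11). The ratio for POU5F1 was 0.749 (0.387 to 1.31) and 0.767 (0.492 to 1.14). SOX2 and POU3F1 peaks were sparser, with 0.357 (0.131 to 0.777) and 0.476 (0.238 to 0.853) for SOX2, and 0.193 (0.0527 to 0.495) and 0.213 (0.0579 to 0.544) for POU3F1. Adjacent peaks are not independent, so these intervals are narrower than the true error. For these ratios each gene's window counts separately, so bases shared by neighbouring windows count more than once. The shares of bases above count each base once, so the 2 backgrounds differ. Counted once, the protein-coding windows held 106282 ZIC2 and 87198 OTX2 peaks in 1649925469 bases in EpiSC culture. The 6 windows held 137 and 50 in 785.9 kb.

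All 6 genes had a ZIC2 and an OTX2 peak in both cultures, which is common: 93.1% and 92.3% of protein-coding windows had a ZIC2 peak in EpiSC and activin-free culture, and 93.3% and 95.6% had an OTX2 peak. SOX2 peaks lay at 3 of the 6 genes in EpiSC culture and at 5 in activin-free culture, beside 75% and 85.6% of all windows. POU5F1 peaks lay at 5 and 6 genes, beside 77.3% and 89.5%. POU3F1 peaks lay at the same 3 genes, Pax2, Gbx2 and Lmx1b, in both cultures, beside 47.8% and 53%.

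**Figure D2:**
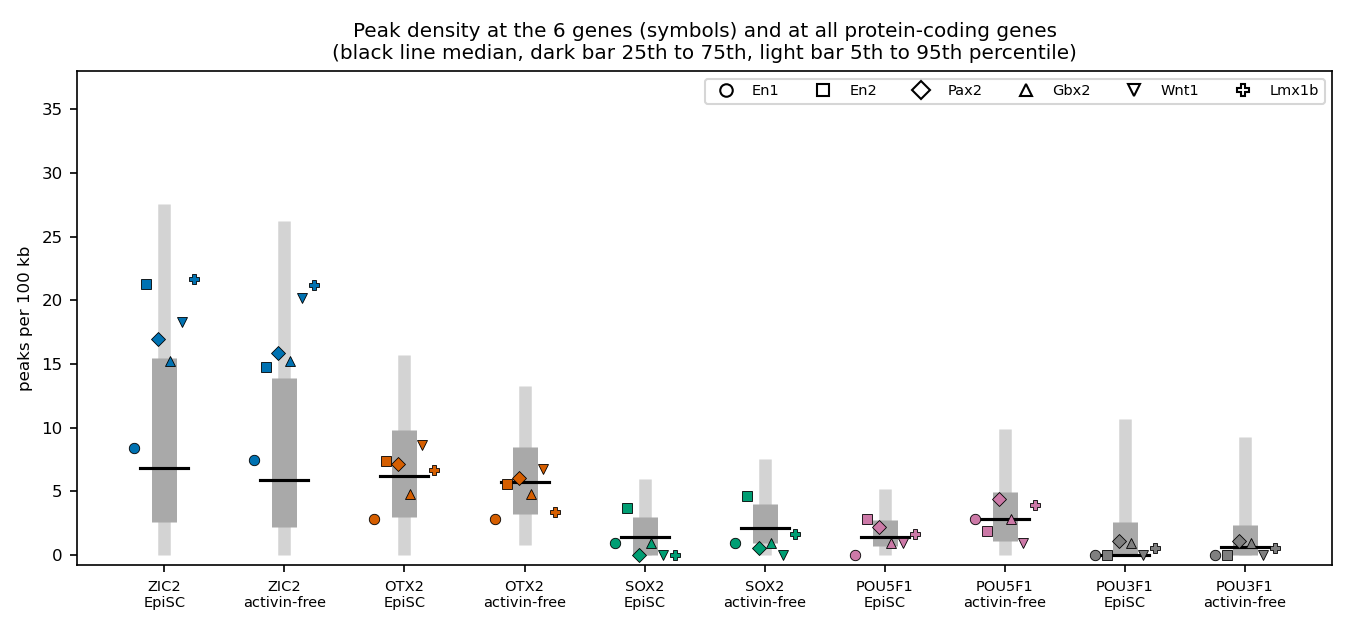
Peaks per 100 kb of window (vertical axis) for each TF and culture (horizontal axis). Symbols are the 6 genes and grey bars the distribution over all protein-coding genes. All 6 genes lie above the median for ZIC2 in both cultures, and 1 of 6 does for SOX2.

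The 6 genes were not alike in ZIC2 density. En1 had 8.42 ZIC2 peaks per 100 kb in EpiSC culture, at the 56.2th percentile of protein-coding genes. Gbx2 had 15.2, Pax2 17, Wnt1 18.3, En2 21.3 and Lmx1b 21.7, from the 74.3th to the 87th percentile. In activin-free culture En1 was again lowest with 7.49, and Lmx1b highest with 21.2. The GC content of the windows was also lowest at En1, with 46.7%, and highest at Lmx1b, with 50.8%, which are the 68.5th and 93.4th percentiles of protein-coding windows. The part of GC content in the ZIC2 density was not tested.

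ZIC2 peaks at these genes were also broad and high. In EpiSC culture 31 of 137 (22.6%, Wilson 95% interval 16.4 to 30.3) were wider than 2000 bp, against 8.82% of ZIC2 peaks in the windows of all protein-coding genes, and 24 of 128 (18.8%, 12.9 to 26.4) in activin-free culture, against 6.33%. Lmx1b held 13 and 10 of these broad peaks. The score, which is -10 log10 of the peak caller's p-value, had a median of 309 over the 137 peaks and 375 over the 128, while the medians over ZIC2 peaks in all protein-coding windows were 181 and 212. OTX2 showed less of a difference, with medians of 124 and 121 beside 101 and 120. Scores stop at or near 3100 and depend on depth, so they are not compared between TFs.

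Annotated transcription start sites (TSSs) of most of these genes lay under ZIC2 peaks. A ZIC2 peak covered a TSS of 5 of the 6 genes in EpiSC culture and of 4 in activin-free culture, where 66.2% and 64.4% of all protein-coding genes had one. No peak of OTX2, SOX2, POU5F1 or POU3F1 covered a TSS of any of the 6 genes in either culture. Such peaks were uncommon at all protein-coding genes too, with 15.5% and 15.3% for OTX2, 2.93% and 7.14% for SOX2, 1.99% and 4.27% for POU5F1, and 3.39% and 4.73% for POU3F1.

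**Figure D3:**
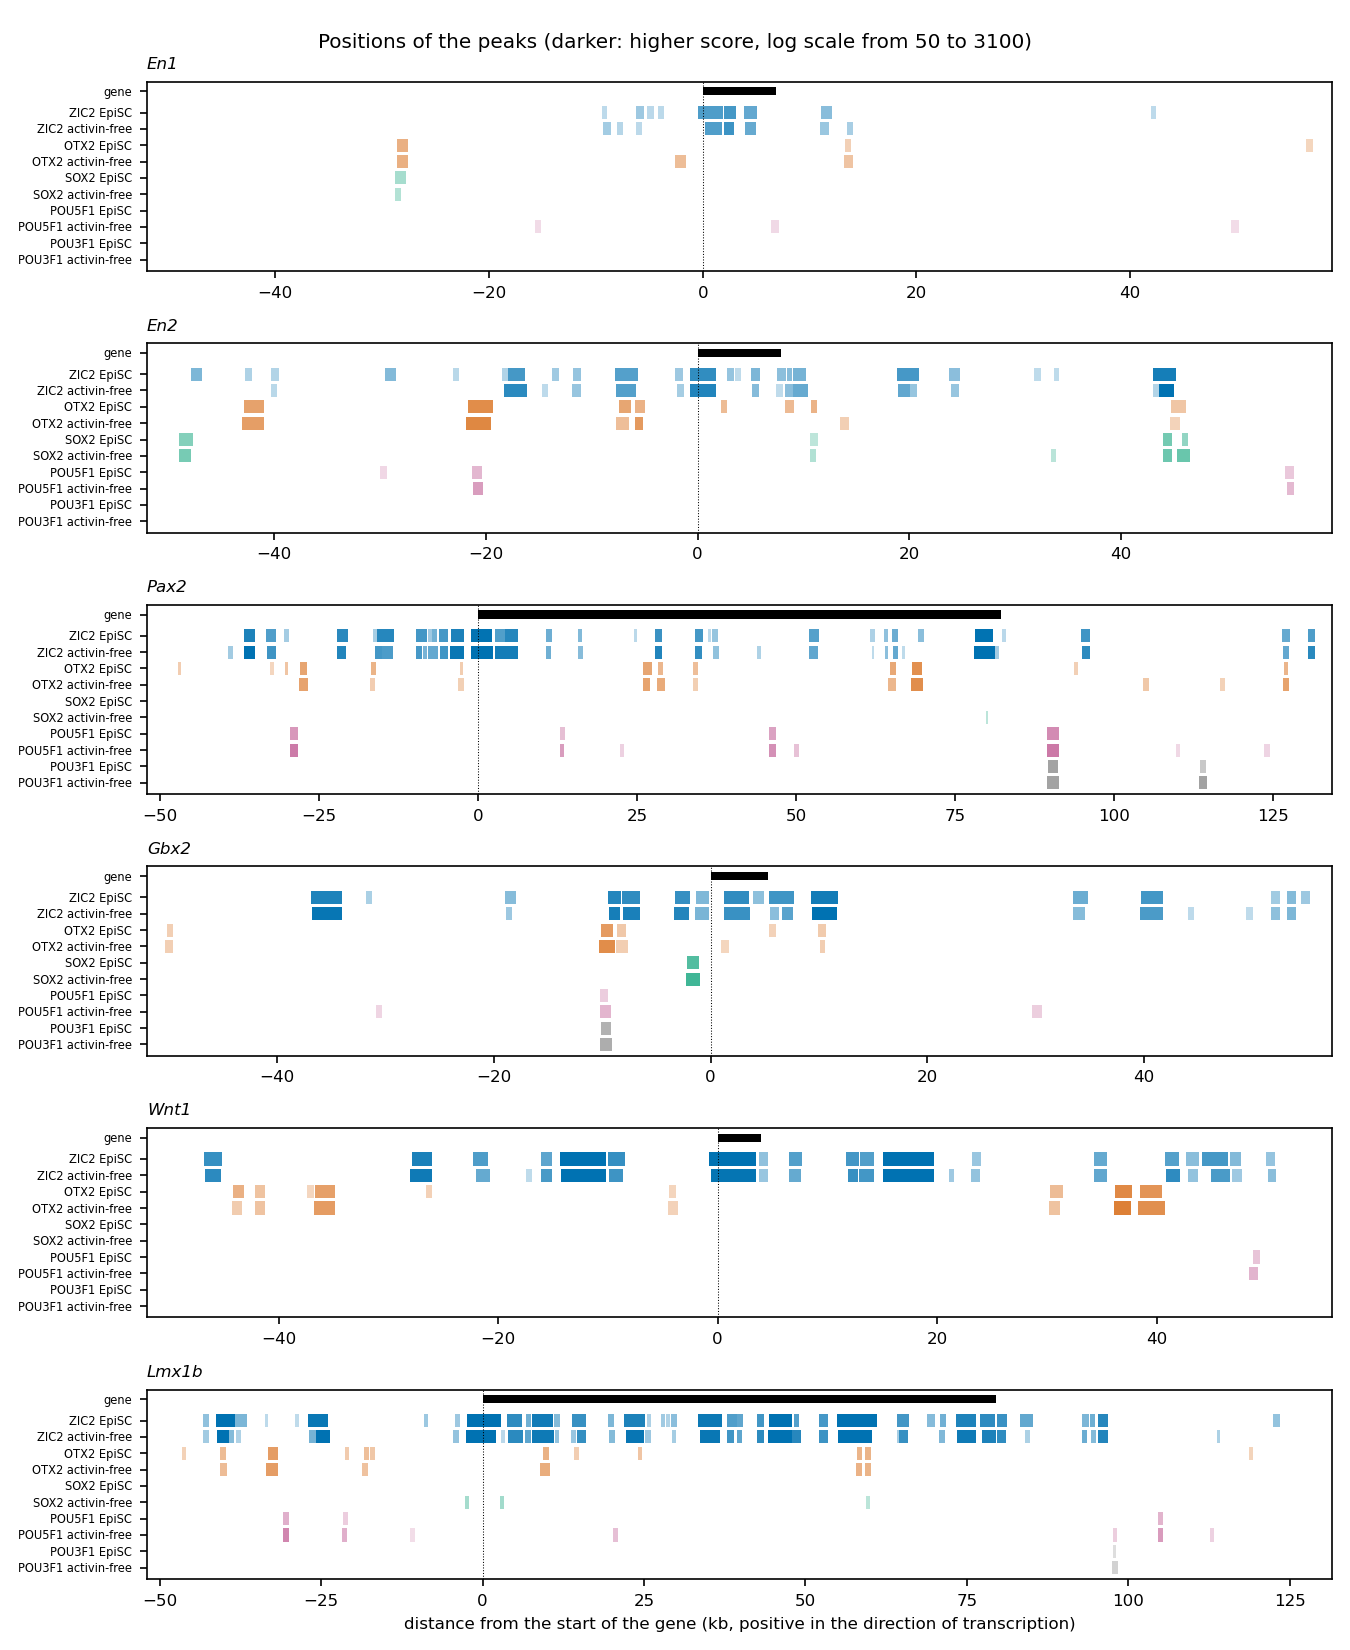
Positions of all 414 peaks by distance from the start of each gene (horizontal axis, kb, negative upstream), with 1 row for each TF and culture and bars drawn at the width of the peak. Darker bars have higher scores. ZIC2 peaks run through all 6 windows, and POU3F1 peaks are seen at Pax2, Gbx2 and Lmx1b.

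Wnt1, the ligand (chr15:98620288-98624268, plus strand), had 19 ZIC2 and 9 OTX2 peaks in EpiSC culture and 21 and 7 in activin-free culture. One ZIC2 peak of 4347 bp ran over the TSS and most of the gene (chr15:98619468-98623814), with a score of 3100 in EpiSC culture, and its activin-free counterpart had 4079 bp and 2790. A pair of ZIC2 peaks of the same order stood at -12.3 kb, in Wnt10b, and at 17.4 kb, in Ddn, with a score of 3100 in both cultures. Every one of the 19 EpiSC ZIC2 peaks overlapped an activin-free peak, and no other gene of the 6 had all its EpiSC ZIC2 peaks in both lists. The highest OTX2 peaks lay 37 and 39.5 kb downstream, in Prkag1, with scores of 704 and 481 in EpiSC culture and 966 and 570 in activin-free culture. The OTX2 peak nearest to the start of Wnt1, at -4.08 kb, scored 52.1 and 57.6. No SOX2 and no POU3F1 peak was listed in the Wnt1 window in either culture, and the single POU5F1 peak of each culture lay about 49 kb downstream, in Mll2, with scores of 137 and 273. The window holds 5 other protein-coding genes, so a peak in it cannot be assigned to Wnt1 from position.

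Gbx2, the homeobox gene of the posterior side (chr1:91824537-91829865, minus strand), carried the site with most TFs. Peaks of ZIC2, OTX2, POU5F1 and POU3F1 were chained upstream of it in both cultures, over 3716 bp in EpiSC culture (chr1:91836368-91840083) and 3795 bp in activin-free culture. In EpiSC culture the scores were 1424 for the ZIC2 peak at -8.85 kb, 384 for the OTX2 peak at -9.57 kb, 335 for POU3F1 and 95.2 for POU5F1. In activin-free culture they were 1915, 631, 425 and 258, so all 4 were higher. By percentile within its own list, ZIC2 went from 94.8 to 93.7 and OTX2 from 94.9 to 96.1. POU3F1 went from 67.6 to 69.4 and POU5F1 from 35.4 to 56.1. The site also held a second OTX2 peak, at -8.2 kb, which was lower in activin-free culture (81.7 and 67.2). A second ZIC2 peak, at -7.33 kb, was higher there (1135 and 1766). The peaks of all 4 TFs shared the same 217 bp, about 9.28 kb upstream of the gene start, in activin-free culture, whereas in EpiSC culture at most 3 lay over the same bases. In EpiSC culture the ZIC2 peak ended at 91839292 and the POU5F1 peak started at 91839293. These peaks abutted, so the contrast between the cultures rests on called peak borders. The sequence from the middle of the site, printed first above, holds no match to the ZIC2, OTX2 or POU words.

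SOX2 had a peak at Gbx2 that stood apart from its other peaks at the boundary genes. It lay 1.65 kb upstream (chr1:91830948-91832083) and scored 513 in EpiSC culture and 787 in activin-free culture, above 99.2% and 99.4% of the SOX2 lists. It bridged a pair of ZIC2 peaks with scores of 199 and 989 in EpiSC culture and 223 and 1466 in activin-free culture. No peak of any TF covered the annotated TSS of Gbx2. The ZIC2 peak over its exons (2.4 kb from the start) scored 1101 and 902. The highest ZIC2 peak of the window, with 2057 in EpiSC and 3100 in activin-free culture, lay 10.5 kb downstream and overlapped a low OTX2 peak of 74 and 66.8.

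En1 (chr1:122498995-122505873, plus strand) had the fewest peaks, 13 in EpiSC and 15 in activin-free culture, in a window that holds no other protein-coding gene. ZIC2 peaks lay upstream (4 in EpiSC and 3 in activin-free culture) and downstream (2 in each), but those of highest score lay in the gene itself. The highest, at 2.55 kb, scored 706 and 858, and the peak next to it scored 570 and 546. That peak covered the TSS in EpiSC culture (chr1:122498598-122500872), while its activin-free counterpart started at 122499178, 3' of the TSS. The only site of 2 TFs in EpiSC culture was an OTX2 and SOX2 site near -28.2 kb, with OTX2 at 182 and 187 and SOX2 at 86 and 64.5. En1 had no POU3F1 peak in either culture and no POU5F1 peak in EpiSC culture. Its 3 POU5F1 peaks in activin-free culture scored 50.9 to 58.1, close to the lowest score listed, 50.

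En2 (chr5:28492236-28500152, plus strand) had 38 peaks in EpiSC culture and 29 in activin-free culture, and its ZIC2 peaks went from 23 to 16. The ZIC2 peak over its TSS scored 1088 and 1536. The highest ZIC2 peak in the window lay 44.1 kb downstream inside Cnpy1 (chr5:28535260-28537401), with 1979 in EpiSC and 3191 in activin-free culture, and was met there by SOX2 peaks of 252 and 295 and OTX2 peaks of 87.3 and 56.2. Annotated starts of short Cnpy1 transcripts lie under this ZIC2 peak, at 44.3, 44.5 and 44.7 kb from the En2 start, 3 of the 6 annotated for Cnpy1. The sequence of this stretch, printed above, holds CAGCAGG once on each strand. The highest OTX2 peak, at -20.5 kb (631 and 739), overlapped a POU5F1 peak of 239 and 702. En2 had the most SOX2 peaks of the 6 genes, 4 and 5, and was the only one above the median SOX2 density of protein-coding genes in both cultures.

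Pax2 (chr19:44830539-44912758, plus strand) had 50 and 51 peaks over a window of 182.2 kb. A ZIC2 peak of 3342 bp covered its TSS with 2971 in EpiSC culture and, at 3416 bp, with 3100 in activin-free culture. Another stood at 79.5 kb, near the 3' end of the gene, with 3026 and 3100, and a further one at -35.9 kb with 1675 and 3154. OTX2 overlapped ZIC2 at 9 sites in EpiSC culture and 6 in activin-free culture, among them the one at 28.4 kb in an intron, with OTX2 at 146 and 224 and ZIC2 at 859 and 1515. The OTX2 peak of highest score, in an intron at 69 kb, had 561 and 582.

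Pax2 also held the highest POU5F1 and POU3F1 peaks of the 6 genes. At 90.4 kb, downstream of the gene (chr19:44920018-44921883), POU5F1 scored 1459 in EpiSC and 3100 in activin-free culture, and POU3F1 641 and 658. At -28.9 kb a POU5F1 peak without any other TF scored 844 and 2899. A further POU3F1 peak at 114 kb scored 134 and 686. No SOX2 peak was listed at Pax2 in EpiSC culture, and the single one in activin-free culture scored 53.4.

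Lmx1b (chr2:33416485-33496031, minus strand) had most peaks, 55 in each culture, 39 and 38 of them of ZIC2, and ZIC2 peaks covered 39% and 33.3% of its window. The peak over the annotated TSS at the gene start ran for 5274 bp in EpiSC culture (chr2:33493255-33498528) and 4618 bp in activin-free culture, with a score of 3100 in both. A peak over another annotated TSS, at 9.22 kb, scored 2131 and 2284 and overlapped OTX2 peaks of 175 and 210. The widest ZIC2 peak of all 6 genes, 6197 bp in EpiSC culture (chr2:33434936-33441132), lay in an intron at 58 kb, scored 3100 in both cultures and overlapped 2 OTX2 peaks with 164 and 156 in EpiSC culture and 164 and 173 in activin-free culture. A SOX2 peak of 54.6 joined this site in activin-free culture alone.

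SOX2 had no peak at Lmx1b in EpiSC culture. In activin-free culture it had 3, all over ZIC2 peaks, with scores of 54.6, 94.8 and 88.4, which lie below the 45th percentile of that list. OTX2 peaks went from 12 to 6, and the 6 that were not listed again had scores of 55.2 to 90.6. POU5F1 peaks went from 3 to 7. The 3 of EpiSC culture, with 274, 97.5 and 331, had counterparts of 754, 325 and 1798, and the 4 others scored 50.7 to 172.

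Where TFs met, it was mostly OTX2 over ZIC2. Of the 50 OTX2 peaks in EpiSC culture 25 overlapped a ZIC2 peak (50%, Wilson 95% interval 36.6 to 63.4), as did 18 of 38 in activin-free culture (47.4%, 32.5 to 62.7). Over the windows of all protein-coding genes the shares were 19.5% and 13.9%. ZIC2 covered 3 to 4 times as much of the 6 windows as of the windows of all genes (the shares of bases are given above), and its part in this overlap was not tested. Taken from the side of ZIC2, 25 of 137 peaks (18.2%, 12.7 to 25.6) overlapped OTX2 in EpiSC culture and 16 of 128 (12.5%, 7.84 to 19.3) in activin-free culture, and the shares over all protein-coding windows, 15.7% and 13.2%, fell inside both intervals. SOX2 peaks overlapped ZIC2 at 3 of 6 and 6 of 11, against 7.21% and 8.41% over all protein-coding windows. No SOX2 peak at the 6 genes overlapped a POU5F1 or a POU3F1 peak in either culture. With 6 and 11 SOX2 peaks these counts of 0 say little, since the shares over all protein-coding windows were 7.95% for POU5F1 and 16% for POU3F1 in EpiSC culture and 14.6% for each in activin-free culture.

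**Figure D4:**
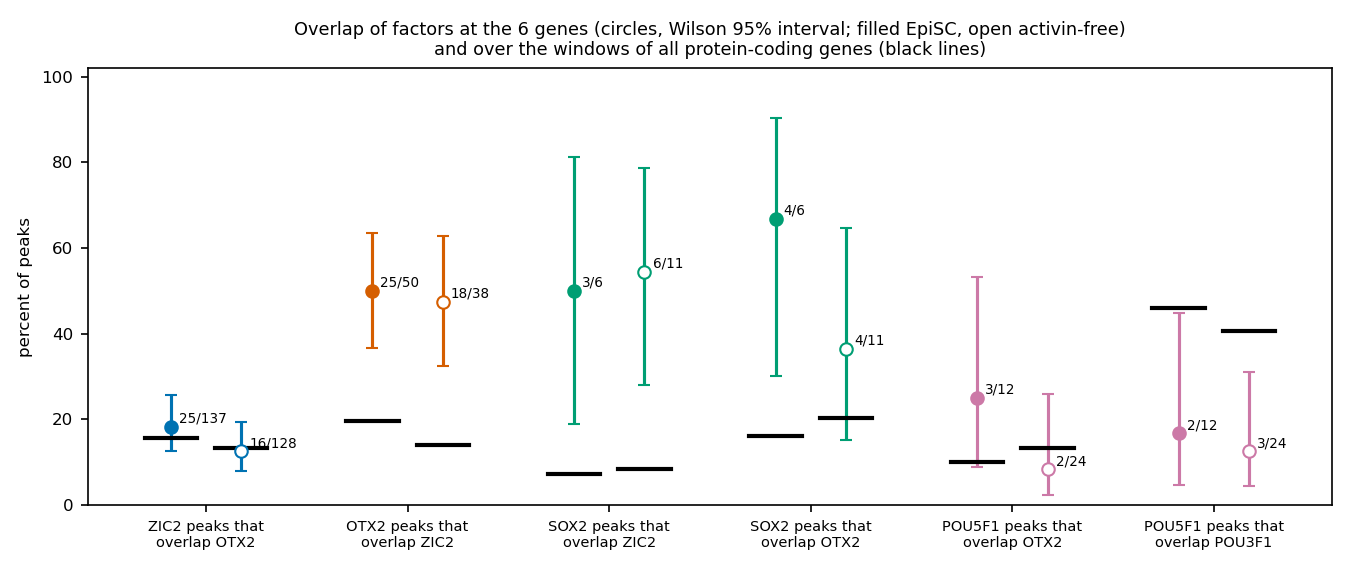
Percent of the peaks of 1 TF that overlap a peak of another TF by at least 1 bp (vertical axis), for the pairs on the horizontal axis. Circles are the 6 genes with Wilson 95% intervals and counts, and black lines the peaks in the windows of all protein-coding genes. OTX2 peaks meet ZIC2 at 50% and 47.4% here, and POU5F1 peaks meet POU3F1 at 16.7% and 12.5%.

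The share of POU5F1 peaks that overlapped POU3F1 was below that over all protein-coding windows, but only 4 POU3F1 peaks per culture were there to be overlapped. POU3F1 peaks covered 0.51% and 0.654% of the 6 windows in EpiSC and activin-free culture, beside 4.44% and 4.64% of all protein-coding windows. The part of this sparseness in the low share was not tested, so the share does not show that POU5F1 peaks avoid POU3F1. Of 12 POU5F1 peaks 2 overlapped a POU3F1 peak in EpiSC culture (16.7%, 4.7 to 44.8), and 3 of 24 (12.5%, 4.34 to 31) in activin-free culture, against 45.9% and 40.7% over all protein-coding windows. With 20 kb on either side of the genes the EpiSC share was 50%. Of the 4 POU3F1 peaks, 2 overlapped POU5F1 in EpiSC culture (50%, 15 to 85) and 3 in activin-free culture (75%, 30.1 to 95.4). The shares over all protein-coding windows, 30.4% and 57.1%, fell inside both intervals.

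Sites with 3 or more TFs were about as common at the 6 genes as at protein-coding genes in general. There were 2 in EpiSC culture, the one upstream of Gbx2 and the one in Cnpy1, and 3 in activin-free culture, with the intron site of Lmx1b added. These lay at 2 and 3 of the 6 genes, close to the 34.5% and 49.1% of all protein-coding windows that held such a site. Most sites, 138 of 168 in EpiSC and 147 of 171 in activin-free culture, had a single TF.

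Many POU5F1 peaks at the boundary genes lay over runs of alternating purines and pyrimidines, such as CA or TG repeats. Such a run of at least 20 bases was present in the middle 200 bases of 7 of the 12 peaks in EpiSC culture (58.3%, 32 to 80.7) and 13 of the 24 in activin-free culture (54.2%, 35.1 to 72.1), beside 29.6% and 21.4% of the whole POU5F1 lists. None of the ZIC2 peaks at these genes held one in either culture, and 0.682% and 0.661% of the whole ZIC2 lists did. The sequence of the highest such EpiSC peak at Lmx1b is given here as an example with a long run, which is in capitals.
Lmx1b, chr2:33526406-33526605, upstream: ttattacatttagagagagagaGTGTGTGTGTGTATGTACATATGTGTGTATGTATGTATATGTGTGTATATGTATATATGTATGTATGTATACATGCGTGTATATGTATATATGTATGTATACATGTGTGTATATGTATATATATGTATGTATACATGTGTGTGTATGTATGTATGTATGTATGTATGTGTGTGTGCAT

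The Lmx1b run takes up 178 of the bases shown and reaches the last of them, so the full run may be longer. The Lmx1b peak that holds it scored 331 and 1798. Runs of 24 and 60 bases lay in the POU5F1 peaks 55.9 kb from the En2 start and 46.3 kb from the Pax2 start. The words ATGCAAAT and ATGCATAT were found in 1 and 1 of the 12 POU5F1 peaks in EpiSC culture and in 3 and 1 of the 24 in activin-free culture, beside 6.44% and 12.8%, and 5.04% and 8.99%, of the whole lists.

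Most EpiSC peaks at the boundary genes were also listed in activin-free culture. Of the EpiSC peaks 110 of 137 of ZIC2 (80.3%, 72.8 to 86.1), 34 of 50 of OTX2 (68%, 54.2 to 79.2), 6 of 6 of SOX2, 11 of 12 of POU5F1 and 4 of 4 of POU3F1 overlapped an activin-free peak of the same TF. Over all protein-coding windows the shares were 79.5%, 77%, 76.8%, 98.2% and 81.2%. From the other side, 115 of 128 ZIC2, 33 of 38 OTX2, 6 of 11 SOX2, 11 of 24 POU5F1 and 4 of 4 POU3F1 peaks of activin-free culture overlapped an EpiSC peak. Over all protein-coding windows these shares were 92.2%, 71.3%, 56.6%, 49% and 86%.

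Peaks found in 1 culture alone were low, as they were over the whole lists. The 27 such ZIC2 peaks of EpiSC culture had a median score of 72.5 and reached at most 209, while the 110 shared ones had a median of 547. The 16 such OTX2 peaks had a median of 67.4 and a highest of 168. In activin-free culture the 13 POU5F1 peaks without an EpiSC partner had a median of 72.7 and a highest of 172, and the 5 SOX2 peaks a median of 56.3 and a highest of 94.8. Over the whole lists the medians of such peaks were 70.8 for ZIC2 and 64.7 for OTX2 in EpiSC culture, and 106 for POU5F1 and 75 for SOX2 in activin-free culture. The lowest score listed is 50.

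**Figure D5:**
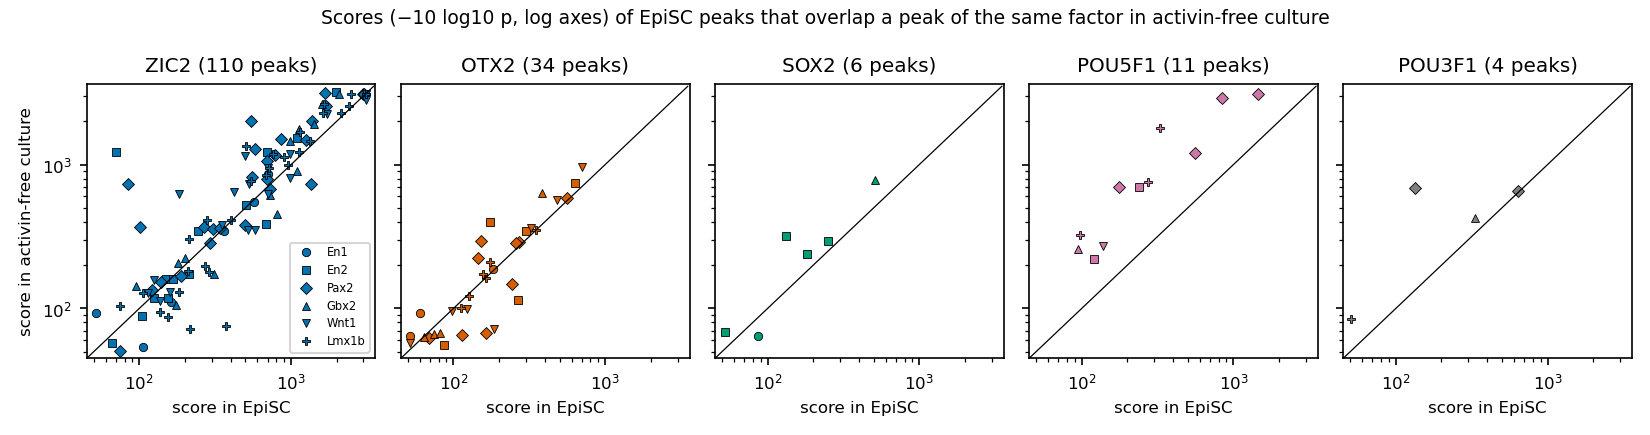
Score of each EpiSC peak at the 6 genes (horizontal axis) and of the activin-free peak of the same TF that overlaps it (vertical axis), both on log axes, with the line of equal scores. All 11 POU5F1 pairs lie above the line, while ZIC2 and OTX2 pairs lie on both sides.

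Among the shared peaks below the ceiling of 3100, POU5F1 scores were higher in activin-free culture at 10 of 10, with a median ratio of 2.85 (1.85 to 5.44). Over the whole POU5F1 list the median ratio was 3.87, and that list grew from 62387 to 126751 peaks, 2.03 times. ZIC2 scores had a median ratio of 1.12 here, with 61 of 97 higher in activin-free culture, and 1.08 over the list. OTX2 scores had a median ratio of 1.03, with 20 of 34 higher, and 1.35 over the list. SOX2 scores were higher at 5 of 6 peaks, with a median ratio of 1.32 beside 1.35. POU3F1 scores were higher at 4 of 4, with 1.46 beside 1.13.

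By number of peaks, ZIC2 went from 137 to 128 in activin-free culture, with more peaks at 1 gene, fewer at 4 and as many at 1. Over all protein-coding windows 17% had more and 55% had fewer. OTX2 went from 50 to 38, with fewer peaks at 4 genes and as many at 2, although its whole list was 1.1 times as long. Among all windows 35.4% had more OTX2 peaks and 48.6% had fewer. SOX2 went from 6 to 11 (a difference of 0 among peaks with a score of at least 100), with more at 3 genes and as many at 3, where 57.6% of all windows had more and 13.5% fewer. POU5F1 went from 12 to 24 (and was lower by 3 in activin-free culture, -3, when each list was held to its 50000 highest peaks), with more at 4 genes, fewer at 1 (En2) and as many at 1, where 73% of all windows had more and 1.31% fewer. POU3F1 stayed at 4 peaks, with the same number at every gene, where 18.1% had more and 22.6% fewer.

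Other genes known from boundary signalling were looked up in the same way, namely Fgf8, Fgf17, Fgf18, Otx2, Pax5, Pax8, Lmx1a, Cnpy1, Sp8, Spry1, Spry2, Dusp6, Il17rd, Flrt3 and Irx2. ZIC2 density was above the median of protein-coding genes at 11 of these 15 in both cultures, with a median of 10.5 peaks per 100 kb in EpiSC culture beside 17.6 at the 6 boundary genes and 6.8 at all. For SOX2 the 6 boundary genes were lowest. The median was 2.85 peaks per 100 kb at the 15 genes, 0.468 at the 6 and 1.44 at all in EpiSC culture, and 3.87, 0.943 and 2.09 in activin-free culture. All 15 had a SOX2 peak in both cultures, against 3 and 5 of the 6, beside 75% and 85.6% of all protein-coding windows. POU3F1 peaks were listed at 11 and 9 of the 15, beside 47.8% and 53% of all protein-coding windows. Fgf8, the ligand that acts with Wnt1 at the boundary, had 14 and 16 ZIC2, 13 and 6 OTX2, 2 and 3 SOX2 and 1 and 2 POU5F1 peaks, and no POU3F1 peak in either culture. The window of Cnpy1 overlaps that of En2, and peaks over the exons of Otx2 can come from the transfected OTX2 plasmid.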

How the data were processed

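The authors sequenced streptavidin-recovered DNA of 5 biotin-tagged TFs in 2 cultures, mapped them on mm9 (Bowtie2), and ran MACS1.4 against input DNA at a band width of 150. The deposited lists give each peak's position and a score, which the authors' caller computed as -10 log10 p (at least 50). Counts of reads are not given, so depth and its precision are unknown. Replicates were not pooled, since each group has 1 library.

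Peaks on chromosomes 1 to 19, X and Y were assigned by midpoint to genes of GENCODE vM1 (mm9) with 50 kb on either side. Peak ends lay within the reference chromosomes except on chromosome 4, where the last peak ended at 155630121 and the chromosome at 155630120. Overlap needed 1 bp. Windows of 22367 protein-coding genes served as comparison. Intervals are Wilson 95% for shares and exact Poisson for counts, and cover counting error only. The peaks named are, per gene, the highest of each culture, those over a TSS, the site with most TFs and the sites that differ between cultures. No test was run. Scripts used Python 3.11.15, numpy 2.4.6, scipy 1.17.1, statsmodels 0.14.6 and pysam 0.24.0 and were tested on simulated data with planted overlaps. The genes and lists were chosen with earlier results of these data known, and the search for alternating runs was added after the peaks were seen. Alternatives were score, list length, window, overlap rule, merging and background.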

Additional observations from a re-analysis of the deposited data

Results flagged for a closer look

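The number of peaks at the 6 genes moved in opposite directions for different TFs between EpiSC and activin-free culture. For ZIC2 it was lower by 9 in activin-free culture (-9) and for OTX2 by 12 (-12), while for SOX2 it was higher by 5 and for POU5F1 by 12. With 1 library per TF and culture this difference was not tested. The whole lists changed as well: the activin-free list was 0.895 times as long as the EpiSC list for ZIC2, 1.1 times for OTX2, 1.38 times for SOX2 and 2.03 times in the case of POU5F1. With the 50000 highest peaks of each list the differences were -1 for ZIC2, -10 for OTX2, 0 for SOX2 and -3 for POU5F1, so none of these 4 TFs had more peaks in activin-free culture among lists of equal length.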

How the results depend on the processing

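No paired analysis was possible because each TF and culture has 1 library and no result comes from a test. Under the alternatives, 131 values stayed within their interval or, for counts, within 1.5 times, 26 moved, and none of these changed direction. The 209 EpiSC peaks became 122 with the 50000 highest peaks of each list, 134 with 20 kb on either side and 344 with 100 kb, and the 205 activin-free peaks became 109 with the 50000 highest and 344 with 100 kb. The 2 EpiSC sites of 3 or more TFs became 1 with a score of at least 100, with the 50000 highest peaks, with 20 kb and with a reciprocal overlap of 50%. The 3 activin-free sites became 1 under the same settings except 20 kb, and 5 with 100 kb. ZIC2 density relative to all genes rose to 2.73 (EpiSC) and 2.93 (activin-free) with 20 kb. The share of EpiSC peaks found in activin-free culture became 100% for POU5F1 with a score of at least 100 and with 20 kb, and for ZIC2 86.6% with that score and 94.7% with the 50000 highest. POU5F1 peaks over POU3F1 in EpiSC culture became 50% with 20 kb. ZIC2 peaks over OTX2 became 11.6% (EpiSC) and 7.77% (activin-free) with a score of at least 100, 4.38% and 3.91% with the reciprocal overlap, and 8.06% and 6.99% as shares of summed width. In a check chosen after seeing the data, the POU5F1 difference of 12 between the cultures turned to -3 with the 50000 highest peaks, where both lists are equally long, the SOX2 difference of 5 became 0 with those peaks or a score of at least 100, and the OTX2 difference of -12 stayed between -5 and -16. The cause of the other changes was not tested. Unknown read depth limits every comparison of scores and list lengths between the cultures.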
